A study of Homo sapiens with 24 samples.

Results

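The transcripts described here encode 54 components of the Wnt signaling pathway, from the secreted ligands to the factors that act on DNA. They were followed in lists of N6-methyladenosine (m6A) peaks from the stepwise differentiation of a human embryonic stem cell line, MEL1, into the pancreatic lineage. The MEL1 cells of the study carry a GFP reporter in the insulin gene (INSGFP/W), which all populations share. A peak was taken as a member when the gene identifiers that the peak list gave it included one of the 54 genes, and this rule found 940 of the 228472 peaks in 6 lists. Of these, 16 had exonic bases outside the member gene (6 named for APC, 6 for RNF43 and 4 for AXIN2) and were set aside. Those of APC and AXIN2 reached exons of a neighbouring gene through annotated readthrough transcripts, and those named for RNF43 held none of its exonic bases. This left 924 peaks: hPSC held 162 of them, DE 134, PP 127, hILO 111, WT PP 198 and A5-KO PP 192.

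A first set of libraries covered 4 stages: undifferentiated pluripotent cells (hPSC), the definitive endoderm derived from them (DE), progenitors of the pancreas (PP), and organoid-like cells modelled on human islets (hILO). A second set covered PP from wild-type cells (WT PP) and from cells whose gene for the m6A demethylase ALKBH5 had been knocked out with CRISPR-Cpf1 (A5-KO PP). All were grown from MEL1 with the same media, in which the GSK3 inhibitor CHIR99021, an activator of Wnt signaling, was given with activin A on the opening day of differentiation, so that every population except hPSC had met it. Each population had 2 immunoprecipitated (IP) and 2 input libraries, 24 in all, but each list gives 1 input and 1 IP read count per peak for the whole population, and no value per library was used. The spread between replicates is therefore unknown, no test across conditions was possible, and every difference below is a description with an error that covers read counting only. The libraries of the 4 stages were made from mRNA with 1 antibody and those of WT PP and A5-KO PP from total RNA with another, so values were compared within each set and not between them. The labels do not say whether A5-KO PP came from more than 1 knockout line.

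Wnt ligands bind Frizzled receptors together with the coreceptors LRP5 and LRP6. This stops a destruction complex built on AXIN and APC, in which GSK3 marks beta-catenin for degradation, and beta-catenin then joins TCF/LEF factors in the nucleus. The pathway induces several of its own antagonists, among them AXIN2, NOTUM and the ubiquitin ligases RNF43 and ZNRF3, and its activity is needed for endoderm formation and is later restrained while foregut gives rise to the pancreas. m6A is placed on mRNA mostly near the stop codon and in long internal exons, within the sequence consensus named DRACH (A, G or T, then A or G, then AC, then A, C or T), of which GGAC is the most common core.

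A peak needs both RNA and m6A, so the lists cannot tell a transcript without m6A from a transcript that was scarce. The reads that fall in all peaks of a list ranged from 6987612 to 28463998 for input and from 30723097 to 79822815 for IP. The median member peak held between 63.5 and 408 input reads, with a counting error of 0.09 to 0.22 on the log2 scale. No input read lay under 16 of the WT PP member peaks (8.08%; background 11.5% of all peaks) and 32 of the A5-KO PP ones (16.7%; background 24.6%), while at the 4 stages every member peak had some. Of the 53 member peaks of WT PP or A5-KO PP with a log2 enrichment above 7, 37 had 0 input reads. The populations were checked against markers: hPSC had peaks on 4 of 5 pluripotency markers (none on SOX2), DE on 5 of 5 endoderm markers and on the same 4 pluripotency markers, PP, WT PP and A5-KO PP on 5 of 5 progenitor markers each, and hILO on 5 of 5 islet and 5 of 5 progenitor markers. Liver markers had peaks on 5 of 5 transcripts in hILO, 4 of 5 in WT PP, 3 of 5 in A5-KO PP and 0 of 5 in PP, and the part of liver-like cells in the results was not tested. ALKBH5 itself held 289 input and 836 IP reads in 4 peaks in WT PP and 1 input and 592 IP reads in 5 peaks in A5-KO PP. IP reads on ALKBH5 thus remained in A5-KO PP, and with 1 input read the lists give no check of the knockout.

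The stretches that lay under peaks throughout can be shown as sequence. Of the 30 members with a peak in all 6 lists, 21 had bases covered by peaks of every list, against a background of 69.3% of the protein coding genes with a peak in all 6. For each member 1 unbroken stretch of common bases was examined, which left out the rest in some, as in LRP6 (400 of 825 nt) and APC (625 of 1775 nt). The midpoint of the examined stretch lay in coding sequence in 9 members, in the 3′ UTR in 10, in the 5′ UTR in 1 (TCF7L2) and off the longest coding isoform in 1 (TLE1), and in 9 it lay within 200 nt of the stop codon. GGAC occurred in the examined stretch of 14 members, and common bases outside it were not searched. Windows of 21 bases around the GGAC nearest the middle are given for 13 of them because they are the stretches that lay under peaks at every stage and in both genotypes. The support in the second set was thin for some: at LRP5 the log2 enrichment of IP over input was 0.65 ± 2.05 (± counting error) for the wild type, on 0 input reads, and 0.80 ± 1.21 for the knockout, on 1, and did not rise above that error. The peaks there of ROR1 and TLE3 in both genotypes and of VANGL2 in A5-KO PP also rested on 0 or 1 input reads. They were read from GRCh38 on the transcript strand, 5′ to 3′, with GGAC in capitals, and a match marks a candidate position, not a mapped m6A.

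The receptor and ligand transcripts gave 5 of these windows, and that of LRP5, a coreceptor, was centred at position -10 from the end of the stop codon (negative positions are upstream).
WNT3 (chr17:46764456-46764476, minus strand, 3′ UTR): tcgcctgtGGACggggaggct
FZD4 (chr11:86951473-86951493, minus strand, coding sequence): aaaggatgGGACaaagacaga
LRP5 (chr11:68449050-68449070, plus strand, coding sequence): ccctgcacGGACtcatcctga
ROR1 (chr1:64178999-64179019, plus strand, 3′ UTR): accaagcaGGACagacactcg
ROR2 (chr9:91723411-91723431, minus strand, 3′ UTR): ggggagcaGGACacatggtca

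The window of WNT3 was the only one of the 13 whose core falls outside DRACH, because G follows GGAC. Further windows came from a secreted inhibitor, the membrane proteins VANGL1 and VANGL2 of planar cell polarity, and the destruction complex. The window of DKK3 lay 1218 nt into the 3′ UTR and that of AXIN1, a scaffold of the destruction complex, lay in coding sequence at position -2243.
DKK3 (chr11:11963235-11963255, minus strand, 3′ UTR): ggtgtcatGGACtgttgccac
VANGL1 (chr1:115691751-115691771, plus strand, 3′ UTR): cttccaggGGACacatcttta
VANGL2 (chr1:160425253-160425273, plus strand, coding sequence): aaacgccaGGACttcagcctg
AXIN1 (chr16:346669-346689, minus strand, coding sequence): gacttgctGGACttctggttt
APC (chr5:112843807-112843827, plus strand, coding sequence): taaaaccaGGACaaaataatc

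The nuclear factors gave the last windows, on the beta-catenin coactivators BCL9 and BCL9L and on the corepressor TLE3, and 6 of the 13 windows in all were centred within 200 nt of the stop codon.
BCL9 (chr1:147624835-147624855, plus strand, coding sequence): gcatgatgGGACcccaacaga
BCL9L (chr11:118898720-118898740, minus strand, coding sequence): gccaccctGGACagatgtcct
TLE3 (chr15:70049917-70049937, minus strand, 3′ UTR): cacagtctGGACtcctgggcc

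Of the 54 Wnt transcripts, 44 carried at least 1 peak at the hPSC stage, 43 at the DE stage, 39 as PP and 38 as hILO. The background over all protein coding genes was 60.2%, 57%, 52.2% and 57.7%, beside 81.5%, 79.6%, 72.2% and 70.4% of the Wnt transcripts. The deposited lists also hold peaks above the p threshold of 1e-05 given in the methods. Below it were 70.4%, 70.9%, 59.1%, 93.7%, 51.0% and 56.3% of the member peaks, from hPSC to hILO and then WT PP and A5-KO PP, beside a background of 62.4%, 62.7%, 61.8%, 94.3%, 54.3% and 54.1% of all peaks, and 42, 39, 35, 38, 39 and 43 members had such a peak. All other values here use the lists as deposited. In the second set, 47 members in WT PP (background 62.8%) and 50 in A5-KO PP (background 69.7%) had a peak. The Wnt transcripts also had longer isoforms than other coding genes with a peak, with medians of 4585 to 5260 nt against 3691 to 3840 nt, and the part of length in the counts was not tested. Among members with a peak, 5 or more were carried by 15 of those in hPSC (background 19.3%), 10 of those in DE (background 16%), 7 of those in PP (background 16.3%), 6 of those in hILO (background 15.3%), 16 of those in WT PP (background 24.7%) and 14 of those in A5-KO PP (background 25.1%). As shares, these were 34.1%, 23.3%, 17.9%, 15.8%, 34.0% and 28.0% of the members with a peak.

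**Figure D1:**
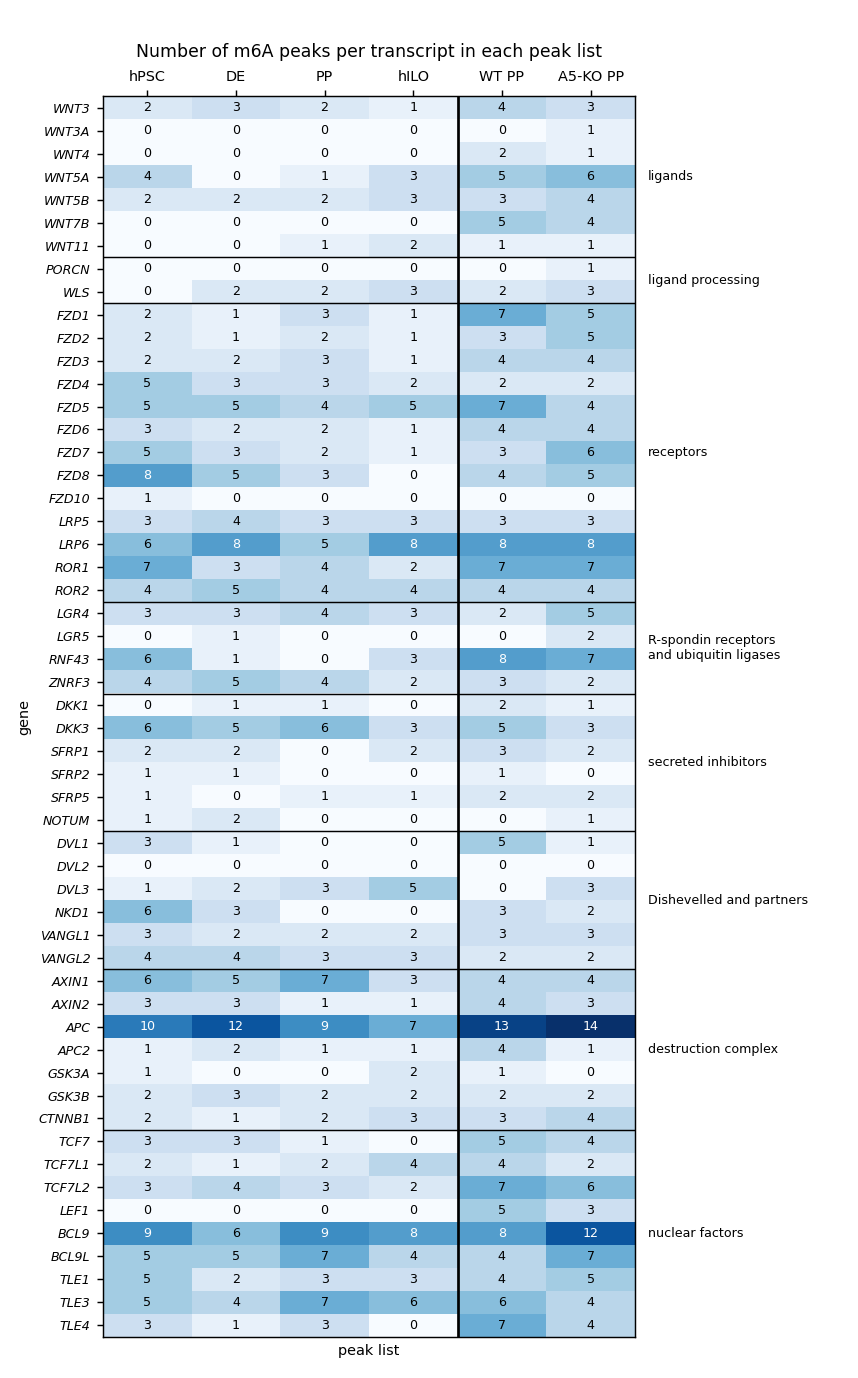
Number of m6A peaks on each of the 54 Wnt signaling transcripts (rows, grouped by role) in each peak list (columns; the vertical line separates the sets of libraries), with darker blue for more peaks. APC holds between 7 and 14 peaks in every list, while DVL2 holds 0 in all 6 and FZD8 goes from 8 in hPSC to 0 in hILO.

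Presence across the 4 stages followed a few patterns. Peaks at all 4 stages were found on 31 members, of 48 with a peak at any stage, beside a background of 57.4% of coding genes, and 30 of the 53 with a peak in any list had one in all 6, where the background was 46.1%. FZD10, a Frizzled receptor, had its only peak in hPSC, with 20 input and 161 IP reads. LGR5, a receptor for R-spondins, which raise Wnt responses, had a peak at the DE stage alone, with 235 input and 425 IP reads. WNT11, a ligand of the beta-catenin independent branch, had peaks in PP and hILO only among the stages. SFRP2, a secreted Wnt-binding inhibitor, NOTUM, a secreted enzyme that removes the lipid of Wnt ligands, DVL1, a signal transducer below the receptors, and NKD1, which binds Dishevelled, had peaks in hPSC and DE and none later. DVL2, a relative of DVL1, had no peak in any list. WNT3A, WNT4, WNT7B, PORCN and LEF1 had none at the 4 stages but did in the second set.

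Most receptors had a peak at every stage. In the order hPSC, DE, PP and hILO, 13, 12, 12 and 11 of the 13 had a peak, with medians of log2 enrichment over their peaks of 1.66, 1.73, 1.91 and 1.60. Of the 7 ligands, 3, 2, 4 and 4 had a peak, and of the 6 secreted inhibitors 5, 5, 3 and 3. Of the 9 nuclear factors 8, 8, 8 and 6 had a peak, and of the 7 members of the destruction complex 7, 6, 6 and 7. FZD8, another Frizzled receptor, had 8, 5, 3 and 0 peaks, with 380, 1049 and 485 input reads in its peaks where it had any. WNT5A, the main ligand of the beta-catenin independent branch, had 4, 0, 1 and 3 peaks.

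Between neighbouring stages, few members had a peak at 1 stage and none at the other. From hPSC to DE, peaks appeared on 3 of the 47 members with a peak in either list (6.38%; WLS, LGR5 and DKK1; background 7.92%) and disappeared from 4 (8.51%; WNT5A, FZD10, SFRP5 and GSK3A; background 12.8%). From DE to PP, they appeared on 3 of 46 (6.52%; WNT5A, WNT11 and SFRP5; background 9.67%) and disappeared from 7 (15.2%; LGR5, RNF43, SFRP1, SFRP2, NOTUM, DVL1 and NKD1; background 17.3%). From PP to hILO, they appeared on 3 of 42 (7.14%; RNF43, SFRP1 and GSK3A; background 17.1%) and disappeared from 4 (9.52%; FZD8, DKK1, TCF7 and TLE4; background 8.38%). Of the 7 that lost their peaks from DE to PP, SFRP1 had 3 peaks in WT PP, SFRP2 had 1, RNF43 had 8, DVL1 had 5 and NKD1 had 3, while LGR5 and NOTUM had none there either, so a missing peak in PP was not always missing in the other list of progenitors.

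The 5 members with the most peaks over the 6 lists were APC with 65, BCL9 with 52, LRP6 with 43, and BCL9L and TLE3 with 32 each. APC, which holds beta-catenin in the destruction complex, had 10 peaks in hPSC, 12 for DE, 9 for PP, 7 for hILO, 13 for WT PP and 14 for A5-KO PP. The peak with the highest log2 enrichment at each stage lay in its coding sequence, at 3.05 ± 0.54, 2.51 ± 0.06, 2.57 ± 0.65 and 2.28 ± 0.05 from hPSC to hILO (± counting error here and below). The values in hPSC and PP rested on 7 and 5 input reads, those in DE and hILO on 710 and 1210, and they came from different peaks. BCL9, which links beta-catenin to the transcription machinery, had 9, 6, 9, 8, 8 and 12 peaks in the same order of lists. At its common bases in coding sequence near the stop codon, the log2 enrichment of BCL9 was 2.24 ± 0.06, 2.23 ± 0.07, 1.75 ± 0.08 and 1.20 ± 0.15 over the 4 stages, so that hPSC and DE did not differ beyond counting error and PP and hILO were lower in turn. On the ratio of read counts the step from DE to PP was -0.12, against a counting error of 0.10, and did not exceed its 95% range, whereas the step from PP to hILO was -0.64.

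LRP6, the coreceptor that GSK3 phosphorylates on ligand binding, had 6, 8, 5, 8, 8 and 8 peaks. Its highest log2 enrichment was 2.05 ± 0.03, 2.62 ± 0.07, 3.20 ± 0.11 and 2.38 ± 0.14 over the stages, each in coding sequence though not always at the same peak. The coding peak of LRP6 that was highest in PP was 0.71 ± 0.23 higher there than in DE, whereas the one that was highest in DE went from 2.62 to 1.68 in PP (-0.94 ± 0.30). BCL9L, a relative of BCL9, had 5, 5, 7, 4, 4 and 7 peaks. At its common bases in coding sequence the log2 enrichment was 1.97 ± 0.04 in hPSC, against 0.74 ± 0.12, 0.76 ± 0.19 and 1.21 ± 0.26 at the stages after it, which put hPSC above the other stages on this scale. On the ratio of read counts the step from hPSC to DE was -0.70, and the next steps were 0.36 and 0.33. That scale therefore does not show hPSC above hILO. TLE3, which represses TCF targets, had 5, 4, 7, 6, 6 and 4 peaks, some of them in its 3′ UTR at every stage.

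Sharing between neighbouring stages stood above the background for DE peaks with hPSC and nearer to it elsewhere. A peak was called shared when more than 50% of its exonic bases lay under peaks of the other list. Of the member peaks in DE, 74.6% were shared with hPSC (100 of 134; 95% Wilson interval 66.6 to 81.2), beside a background of 64.7% of all peaks. Of those in PP, 59.1% were shared with DE (75 of 127; 50.4 to 67.2; background 57%), and of those in hILO, 50.5% with PP (56 of 111; 41.3 to 59.6; background 45.6%). In the opposite direction 57.4% of the hPSC peaks (background 52.5%), 41.0% of the DE peaks (background 46.6%) and 56.7% of the PP peaks (background 60.5%) were shared with the stage that followed. Where more than 50% of both peaks had to overlap, the shares of DE with hPSC and of PP with DE were 56.0% (background 47.6%) and 34.6% (background 41.3%), and that of PP with hILO 33.1% (background 40.2%). The intervals treat peaks as independent, which peaks of 1 transcript are not.

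At shared peaks with 10 or more input reads in both lists, the log2 enrichment of the Wnt transcripts moved little as a group. The median difference was -0.14 in DE against hPSC (90 peaks of 38 members; -0.09 over all 17347 shared peaks), -0.03 in PP against DE (62 peaks of 32 members; -0.12 over all 13818) and -0.12 in hILO against PP (52 peaks of 31 members; -0.10 over all 12923). On the ratio of read counts the median of PP against DE turned to 0.16 (-0.03 over all). A peak was called higher or lower when its log2 enrichment differed by at least 1 and beyond the 95% range of the counting error. In DE against hPSC 3 peaks were higher (background 3.27%) and 7 lower (background 4.84%), or 3.33% and 7.78% of the member peaks. In PP against DE 5 were higher (background 5.79%) and 3 lower (background 7.3%), and in hILO against PP 1 was higher (background 4.08%) and 5 lower (background 11.1%).

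The named differences were those with 50 or more input reads on both sides. From hPSC to DE, a peak of TCF7, a TCF/LEF factor, off its longest coding isoform, went from 1.18 to 2.34, a difference of 1.17 ± 0.29 on the log2 scale. LRP6 was 0.94 ± 0.18 higher in its 3′ UTR and AXIN2 0.46 ± 0.23 higher, both under the threshold of 1. On the lower side were a 5′ UTR peak of LGR4, an R-spondin receptor (2.12 to 0.77, difference -1.35 ± 0.22), the coding peak of BCL9L described above (-1.23 ± 0.12) and a coding peak of ROR1, a receptor tyrosine kinase for Wnt ligands (2.67 to 1.63, -1.04 ± 0.12). On the ratio of read counts, each list centred on its median over all shared peaks, those 3 differences were -0.83, -0.70 and -0.89 and no longer passed, whereas TCF7 kept 1.18. A second peak of TCF7, in the 3′ UTR and with 27 input reads in hPSC, went the other way, from 2.29 to 0.80.

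From DE to PP, a 3′ UTR peak of TLE3 went from 1.11 to 2.81 (difference 1.70 ± 0.20), and from PP to hILO the same stretch went back to 1.01 (-1.80 ± 0.16), so that PP stood above both neighbours. The reads under it were 129 input and 188 IP in DE, 193 and 1244 in PP, and 242 and 416 in hILO, and hPSC had no peak there. FZD3, a Frizzled receptor, was 1.12 ± 0.15 higher in PP than in DE and APC 0.76 ± 0.31 higher. Lower in PP were FZD7 in its 3′ UTR (2.38 to 0.73, difference -1.65 ± 0.18), VANGL2, a planar cell polarity protein, in coding sequence next to the stop codon (2.29 to 0.91, -1.39 ± 0.15), and ROR2, a receptor of WNT5A, in its 3′ UTR (2.31 to 1.09, -1.22 ± 0.23). FZD3 at 0.98 and ROR2 at -0.58 missed the threshold on the ratio of read counts, while TLE3, FZD7 and VANGL2 passed on both scales. Elsewhere on these transcripts, a second 3′ UTR peak of TLE3 was lower in PP (-0.69 ± 0.13) and a coding peak of ROR2 higher (0.36 ± 0.07), both under the threshold. The DE peak in the 3′ UTR of ROR2 also covered another PP peak, at 2.68 with 98 input reads, which the pairing left out. The lower value of ROR2 thus holds for the paired part of that DE peak only.

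From PP to hILO, besides TLE3, CTNNB1, which encodes beta-catenin, was lower at a peak centred in its 3′ UTR in PP (2.78 to 1.44, difference -1.33 ± 0.10), as was ROR1 in its 3′ UTR (2.46 to 1.46, -1.01 ± 0.16). On the ratio of read counts these 2 were -0.86 and -0.60 and did not pass. The highest differences with enough reads were those of DKK3, a secreted member of the Dickkopf family, at 0.67 ± 0.26, WNT3, at 0.58 ± 0.19, and TLE1, a relative of TLE3, at 0.49 ± 0.25, all under 1.

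**Figure D2:**
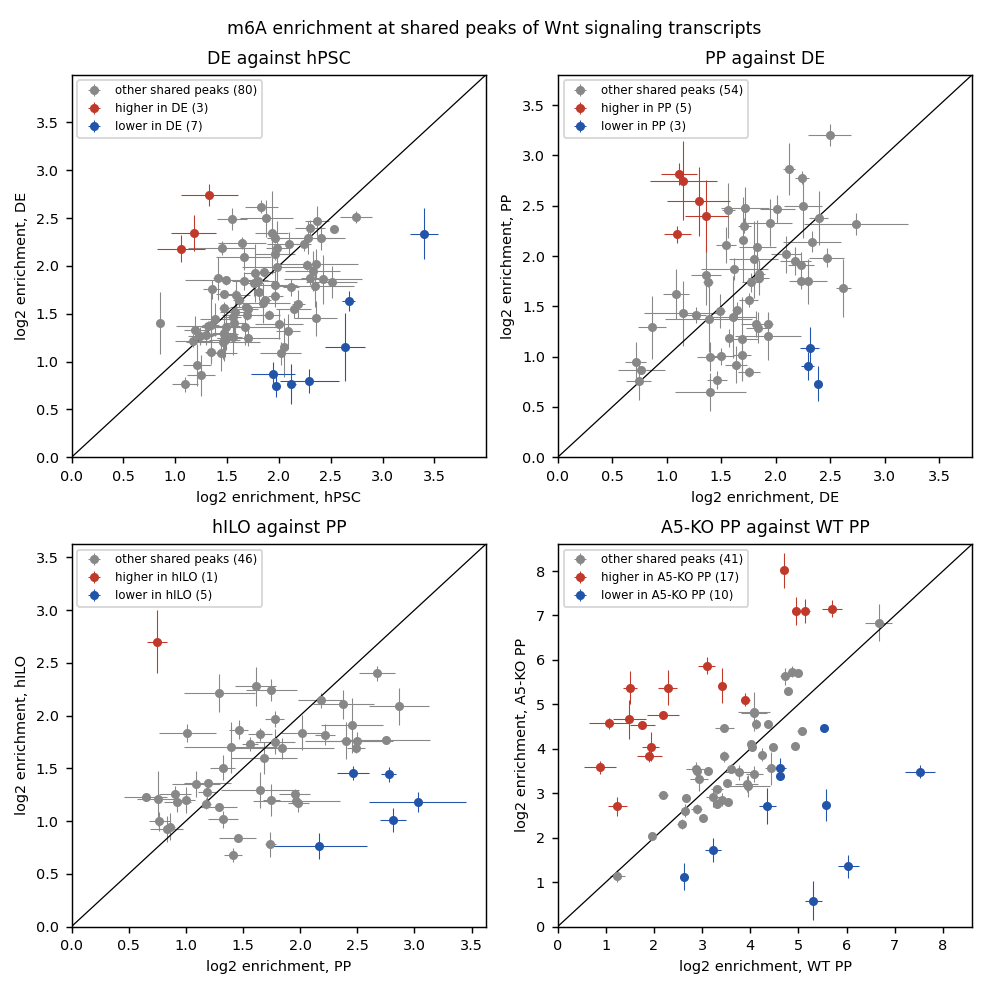
Log2 enrichment of IP over input at shared peaks of Wnt signaling transcripts with 10 or more input reads in both lists, 1 panel for each comparison, with the earlier stage or WT PP on the x axis and the later stage or A5-KO PP on the y axis. Bars are the counting error of each value, the line marks equality, and red and blue mark the peaks called higher and lower; the panel of A5-KO PP against WT PP holds 27 called peaks of 68, the panels of the stages between 6 and 10.

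The genes of the negative feedback loop and other known Wnt targets were followed one by one. AXIN2, a scaffold that Wnt signaling induces, had a coding peak at the same 75 bases in hPSC, DE and both lists of the second set, centred at position -1270 from the end of the stop codon, and a 3′ UTR peak in all 6 lists. The coding peak had log2 enrichments of 2.30 ± 0.08 in hPSC and 1.88 ± 0.08 in DE and was not called in PP or hILO. The 3′ UTR peak was at 1.47 ± 0.06, 1.56 ± 0.06, 2.45 ± 0.27 and 1.91 ± 0.26 from hPSC to hILO, with 766, 821, 32 and 39 input reads. Fewer input reads thus lay under the AXIN2 peak in PP and hILO than in hPSC and DE, while the enrichment there was not lower. In A5-KO PP all 3 AXIN2 peaks had 0 input reads and 139 IP reads in all, against 270 input reads in 4 peaks of WT PP.

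RNF43 and ZNRF3 encode ubiquitin ligases that remove Frizzled receptors from the cell surface. RNF43 had 6, 1, 0, 3, 8 and 7 peaks in the order of the lists, and its coding peak was at 2.19 ± 0.06 in hPSC, 1.60 ± 0.14 in DE and 0.72 ± 0.15 in hILO. All 25 of its peaks also carry identifiers of other genes, whose reads cannot be separated from those of RNF43. ZNRF3 had 4, 5, 4, 2, 3 and 2 peaks, and at its common bases in the 3′ UTR the log2 enrichment was 2.37 ± 0.11, 2.47 ± 0.16, 1.99 ± 0.09 and 1.18 ± 0.09 over the stages. For ZNRF3, hPSC and DE did not differ beyond counting error, and hILO was the lowest stage.

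NKD1 had 6 peaks in hPSC and 3 in DE, over the stop codon and beyond, with 89 and 107 input reads in all, and none in PP or hILO. In WT PP it had 3 peaks with 1783 input reads and in A5-KO PP 2 peaks with 1265, and the peak over the stop codon was at 2.18 ± 0.10 and 2.95 ± 0.06, a difference of 0.77 that turned to -0.08 on the ratio of read counts. NOTUM had 1 peak in hPSC at 2.00 ± 0.23 and 2 in DE at 1.39 ± 0.16 and 1.58 ± 0.25, all in the 3′ UTR, none in PP, hILO or WT PP, and in A5-KO PP 1 peak with 0 input and 227 IP reads. DKK1, which blocks LRP5 and LRP6, had a peak just past the stop codon at 1.62 ± 0.31 in DE, with 31 input reads, and at 1.87 ± 0.11 in PP, with 217, values that did not differ beyond counting error. The same place of DKK1 was at 3.11 ± 0.17 in WT PP with 126 input reads and at 7.62 ± 0.54 in A5-KO PP with 7.

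LGR5 had its DE peak over the stop codon, at 1.51 ± 0.12, and 2 peaks elsewhere in the coding sequence in A5-KO PP, which rested on 2 and 13 input reads. LEF1, the TCF/LEF factor that is itself a Wnt target, had no peak at the 4 stages, 5 peaks in WT PP with 234 input reads and 3 in A5-KO PP with 230. No LEF1 peak met the rule for a shared peak with enough reads, so no difference is given for it. Counted together, the 8 feedback genes had 94 peaks, of which 86 lay on the longest coding isoform.

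**Figure D3:**
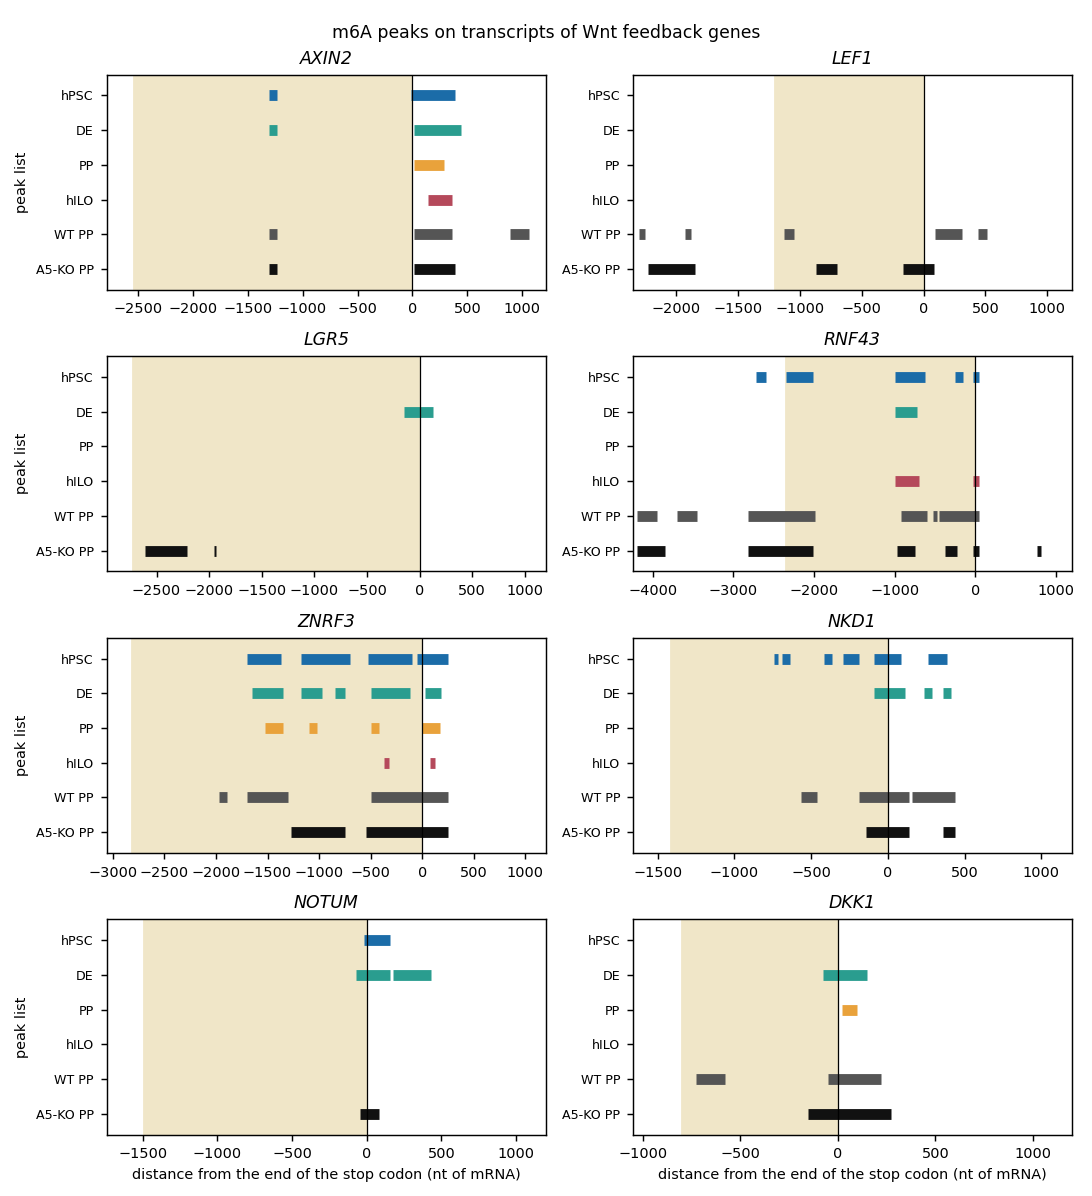
Positions of m6A peaks on the transcripts of 8 Wnt feedback genes and targets, with the distance from the end of the stop codon in nt of mRNA on the x axis and 1 row per peak list. Each bar is 1 peak, drawn at its exonic length around its midpoint on the longest coding isoform, with coding sequence shaded; 86 of 94 peaks are shown. AXIN2 has a 3′ UTR peak in every list, whereas the peaks of NKD1 and NOTUM are missing in PP and hILO.

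The knockout comparison asks whether loss of the demethylase changes m6A on these transcripts. In A5-KO PP, 5 of the 52 members with a peak in either genotype had peaks that WT PP lacked (WNT3A, PORCN, LGR5, NOTUM and DVL3; background 16%), and 2 had peaks in WT PP alone (SFRP2 and GSK3A; background 6.81%). WNT3A, a ligand that acts through beta-catenin, had 1 coding peak in A5-KO PP at 3.04 ± 0.20, with 80 input and 134 IP reads. PORCN, the enzyme that attaches the lipid to Wnt ligands, had 1 peak with 0 input and 48 IP reads. DVL3, a Dishevelled protein, had 3 peaks with 234 input reads in A5-KO PP and none in WT PP, although all 4 stages of the other set had peaks on it. SFRP2 had a coding peak in WT PP at 6.18 ± 0.11, with 201 input and 2015 IP reads, and GSK3A, a kinase of the destruction complex, 1 peak with 0 input and 116 IP reads. The peaks of PORCN, NOTUM and GSK3A had no input reads to set them against, unlike those of WNT3A, DVL3 and SFRP2.

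Of the member peaks in A5-KO PP, 68.8% were shared with WT PP (132 of 192; 95% Wilson interval 61.9 to 74.9; background 46.8%). Where more than 50% of both peaks had to overlap, the share was 38.02% (background 30.6%), so that the gap to peaks at large shrank with the rule. In the other direction 50.5% of the WT PP member peaks were shared with A5-KO PP (100 of 198; 43.6 to 57.4; background 50%). At the 68 shared peaks of 33 members with 10 or more input reads on both sides, the median difference in log2 enrichment was 0.13, with quartiles of -0.59 and 1.05, beside 0.08 over all 12725 shared peaks. Its sign depended on the scale and the read minimum: the median was -0.16 on the ratio of read counts (-0.31 over all), -0.016 with 50 or more input reads on both sides and 0.37 without a minimum. Higher in A5-KO PP were 36 of the 68 and lower 32. Past the threshold of 1 and the counting error, 17 of the 68 were higher (background 27.7%) and 10 lower, or 14.7% (background 24.2%).

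The 17 higher peaks lay on 12 members (APC, AXIN1, BCL9L, DKK3, FZD6, FZD7, LRP5, LRP6, SFRP1, TCF7, VANGL1 and ZNRF3) and the 10 lower on 9 (APC, CTNNB1, FZD5, FZD6, LRP6, ROR2, SFRP1, SFRP5 and WNT7B), so that 4 members had peaks called in both directions and the others in 1. On the ratio of read counts the split turned, to 10 higher (background 17.3%) and 12 lower (background 28.4%), with 10 and 7 of them called the same way on both scales. Fewer input reads lay under 40 of the 68 peaks in A5-KO PP than in WT PP (background 58.8% of all 12725 shared peaks), so the members stood at the background. They were also fewer under 11 of the 17 higher ones, and more numerous under 3 of the 10 lower ones. The part of input depth in these calls was not tested. Among the 40 member peaks with 50 or more input reads on both sides, 4 were higher (background 22.7%) and 3 lower (background 20.1%).

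The named peaks were again those with 50 or more input reads on both sides. A peak of TCF7 off its longest coding isoform went from 3.09 in WT PP to 5.87 in A5-KO PP (difference 2.78 ± 0.26, from 81 and 469 input and IP reads to 64 and 729). LRP6 went in coding sequence from 5.69 to 7.15 (1.46 ± 0.28, from 58 and 372 to 59 and 918 reads). FZD7, a Frizzled receptor, went in the 3′ UTR from 1.24 to 2.70 (1.46 ± 0.30, from 88 and 112 to 67 and 143 reads). For these 3 the ratio of read counts gave 0.76, 1.06 and 0.53, so that LRP6 alone passed on both scales. LRP6 did not go 1 way, however. Another of its coding peaks was called lower on both scales (5.31 to 0.59, -4.72 ± 0.47, ratio -1.65), with 75 and 16 input reads. A further coding peak was called higher on both (4.95 to 7.10, 2.15 ± 0.32, ratio 1.89), with 1092 and 22 input reads.

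Lower in A5-KO PP were WNT7B, SFRP5 and APC. WNT7B, a ligand made in developing epithelia, went in its 3′ UTR from 4.62 to 3.39 (difference -1.23 ± 0.07), with input reads of 1130 and 954 and IP reads of 5804 and 1679. A second 3′ UTR peak of WNT7B went the other way, from 3.46 to 4.46 with 60 and 326 input reads, a difference just under 1 that was 0.27 on the ratio of read counts. SFRP5, a secreted inhibitor made in foregut endoderm, went in coding sequence near the stop codon from 5.54 to 4.47 (-1.07 ± 0.11), with 311 and 472 input and 4560 and 3129 IP reads. APC went at 1 of its coding peaks from 4.62 to 3.56 (-1.06 ± 0.27), with 175 and 54 input and 597 and 103 IP reads. All 3 also passed on the ratio of read counts, at -1.76, -1.36 and -1.06. Other coding peaks of APC were called higher in A5-KO PP, each with fewer than 30 input reads there.

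The position of the member peaks differed most from that of all peaks in the hPSC list, where fewer lay in the 3′ UTR. The midpoint lay in coding sequence for 51.0% to 60.4% of the member peaks across lists, beside 48.97% to 56.3% of all peaks, and in the 3′ UTR for 26.2% to 44.1%, beside 37.4% to 44.5%. In hPSC, 26.2% of the member peaks lay in the 3′ UTR (39 of 149 on a longest coding isoform; 95% Wilson interval 19.8 to 33.8) against 40.1% of all peaks, and 13.4% in the 5′ UTR (8.86 to 19.8) against 7.04%. Across lists the 5′ UTR held 4.90% to 13.4% of the member peaks, beside 3.88% to 7.13% of all, and the members stood above all peaks in every list. The interval lay above the share over all peaks in hPSC and in A5-KO PP (11.4%, 7.52 to 17.0, against 6.33%) and included it in the other lists. Within 200 nt of the stop codon lay 17.7% to 24.2% of the member peaks and 18.3% to 22.1% of all. From hPSC to hILO the share in the 3′ UTR stood at 26.2%, 36.8%, 29.9% and 44.1%.

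GGAC on the transcript strand occurred in 71.6% of the hPSC member peaks (116 of 162; 95% Wilson interval 64.2 to 78.0), against 57.7% of all hPSC peaks, and in 52.8% to 64.1% in the other lists, against 51.3% to 56.8%. Among those lists the interval of WT PP alone (64.1%; 57.3 to 70.5) lay above the share over all peaks, 56.8%. Member peaks in hPSC also had a median GC content of 56.6%, against 50.3% over all peaks, and a median exonic length of 200 nt against 175 nt, and the part of base composition was not tested. In windows of 75 nt at the peak centre, which have the same length everywhere, GGAC occurred in 45.1% of the hPSC member peaks (37.1 to 53.3) against 34.1% of all and in 41.4% of the hILO ones (32.2 to 51.3) against 29.8%. In the other lists 29.6% to 33.3% of the member windows held it, against 29.5% to 32.5%, with DE members below all DE peaks (29.6% against 32.5%). DRACH in these windows was less frequent among members than among all peaks in DE (73.0%; 64.3 to 80.3; against 83.9%) and in WT PP (75.4%; 68.5 to 81.3; against 82.1%). It was also less frequent in PP (78.7% against 83.1%) and A5-KO PP (80.9% against 82.7%). In hPSC (85.2% against 82.5%) and hILO (88.9% against 82.8%) it was more frequent. The intervals of PP, A5-KO PP, hPSC and hILO included the share over all peaks. Per kb of peak, the members held 5.32 to 6.73 GGAC on the transcript strand and 3.03 to 3.497 on the opposite strand, beside 3.95 to 5.17 and 2.56 to 3.01 over all peaks. The members stood above all peaks in every list on both strands, and their median GC content was also higher in every list. DRACH per kb went the other way, with 19.6 to 22.4 among members beside 21.7 to 22.7 over all peaks on the transcript strand and 14.4 to 16.1 beside 15.4 to 17.2 on the opposite strand, the members below all peaks in every list on both. DRACH was found in 86.6% to 95.5% of the member peaks and on the opposite strand in 78.7% to 89.2%, so that a match within a whole peak says little by itself. GGAC is contained in DRACH where A, C or T follows.

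**Figure D4:**
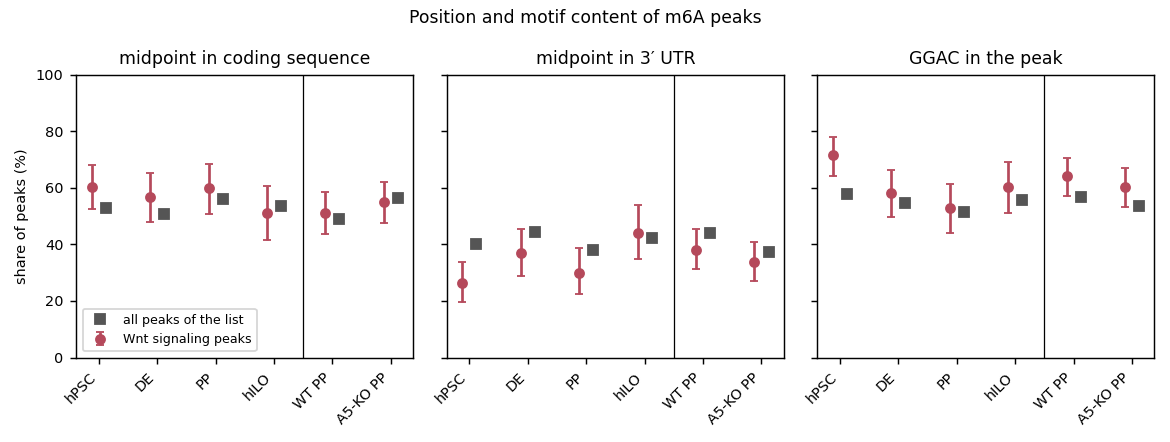
Share of peaks (y axis, %) with their midpoint in coding sequence or in the 3′ UTR of the longest coding isoform, or with a GGAC on the transcript strand, for each peak list (x axis; the vertical line separates the sets of libraries). Circles with 95% Wilson intervals are the peaks of Wnt signaling transcripts and squares all peaks of the list; in hPSC the members stand at 26.2% against 40.1% in the 3′ UTR and at 71.6% against 57.7% for GGAC.

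Another 70 genes of the pathway, kept apart from the 54, gave a view of the rest of it: 44, 50, 35 and 35 had a peak from hPSC to hILO, 53 for WT PP and 56 for A5-KO PP, or 62.9%, 71.4%, 50.0%, 50.0%, 75.7% and 80.0% of them. Beside the coding-gene backgrounds of 60.2%, 57%, 52.2%, 57.7%, 62.8% and 69.7%, these genes stood near the background in hPSC and PP, below it in hILO and above it in the other lists, whereas the 54 stood above it in every list. Both sets were chosen with earlier results of these data known. The contrast between them may therefore reflect that choice and is not a trait shown for the 54.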

How the data were processed

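m6A-seq had been run on 24 libraries of 6 populations, each with 2 IP and 2 input libraries. Per the paper's methods and the labels, the authors used fastp for trimming and HISAT2 for alignment to GRCh38, and called peaks with exomePeak2. How replicates entered the calling, and the annotation release, are not given in the sources used here. The deposited lists hold raw read counts of input and IP per peak, with 1 value per population, pooled over libraries without saying whether by sum or mean. The deposited log2 enrichment of IP over input and its p-value are the authors' exomePeak2 estimates within 1 list, corrected beyond the ratio of counts.

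From these lists, peaks of the 54 genes were matched by gene identifier to GENCODE release 44, all 54 of which were found, and reduced to exonic bases. The members, roles and lists of other genes were chosen with earlier results of these data known. A peak was shared when over 50% of its exonic bases lay under peaks of the other list on the same strand, and pairs kept the overlapping peak with most common bases and 10 or more input reads in both lists. Counting error was the standard error of a log2 ratio of Poisson counts with 0.5 added to each. It takes pooled counts as sums (if they are means it is too large) and does not cover PCR copies or the spread between cultures. Regions were those of the longest coding isoform. Values came from Python 3.11.15 with pandas 2.3.3 and scipy 1.17.1, and the overlap and pairing code was tested on simulated peaks.

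Named were the members with most peaks, with a peak at 1 stage or in 1 genotype alone, or with none; 8 feedback genes; and, per comparison, up to 3 members with the largest difference in each direction among pairs with 50 or more input reads in both lists. Sequences from chromosome 8 are not shown. A count model with A5-KO PP against WT PP had been planned and was not run, since values per library were not used here.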

Additional observations from a re-analysis of the deposited data

How the results depend on the processing

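No paired analysis was possible because each list gives 1 value per population, so a replicate block, leaving out replicates, other size factors and the planned count model, with its own filter on low counts, were not run. Keeping peaks with p below 1e-10 left 63, 62, 46, 65 and 63 member peaks in hPSC, DE, PP, WT PP and A5-KO PP and 33 members with a peak in A5-KO PP. With p below 1e-05, the threshold in the study's methods, 75, 101 and 108 member peaks remained in PP, WT PP and A5-KO PP. Keeping the 16 peaks set aside for exonic bases outside the member, an alternative chosen after seeing the data, moved no count beyond 1.5 times.

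Any overlap of 1 base raised the shared share to 82.1% of DE peaks with hPSC (67.3% in reverse), 58.2% of DE peaks with PP, 65.8% of hILO peaks with PP and 76.6% of A5-KO PP peaks with WT PP (61.1% in reverse). Reciprocal overlap lowered it to 56.0% and 46.3% between DE and hPSC, 34.6% and 32.8% between PP and DE, 37.8% and 33.1% between hILO and PP, and 38.02% and 36.9% between A5-KO PP and WT PP.

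On the ratio of read counts the median differences were -0.017, 0.16, -0.059 and -0.16 in the order of the comparisons, so that PP against DE and A5-KO PP against WT PP changed sign. They called 4 lower in DE against hPSC, 2 higher in hILO against PP and 10 higher in A5-KO PP. Where both lists had 50 or more input reads, the medians were -0.18 in PP against DE, -0.018 in hILO against PP and -0.016 in A5-KO PP against WT PP, and the calls went to 1 higher and 3 lower in DE, 2 higher in PP, 0 higher and 3 lower in hILO, and 4 higher and 3 lower in A5-KO PP. Without a minimum of input reads the A5-KO PP median was 0.37, with 36 higher. The cause was not tested. Of the 103 shared member peaks of the knockout comparison, 68 had 10 or more and 40 had 50 or more input reads on both sides.

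Any overlap with a region put 71.6%, 68.2%, 69.1%, 63.9% and 65.7% of member peaks of hPSC, DE, PP, WT PP and A5-KO PP on coding sequence, and 35.5% of hPSC and 56.6% of hILO peaks on the 3′ UTR. In place of DRACH, GGAC was held by 71.6%, 58.2%, 52.8%, 60.4%, 64.1% and 60.4% of member peaks in the order of the lists, and DRACH on the opposite strand by 84.0%, 79.9%, 78.7%, 89.2%, 83.8% and 82.3%.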
